A study of Homo sapiens with 183 samples.

Results

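RUVBL1 was knocked out in T3M-4, a human pancreatic ductal adenocarcinoma line of the basal-like kind, and the polyadenylated RNA of 3 knockout libraries was set against that of 4 control libraries. All 3 libraries labelled sgRUVBL1 in the second T3M-4 experiment were taken, out of 183 samples in the whole series, together with the 4 sgRosa libraries of the same experiment, whose guides cut the ROSA26 safe-harbour locus. Every T3M-4 culture of this experiment, controls included, stably expressed Cas9 and carried a guide from a lentiviral vector with puromycin resistance and GFP, and RNA was taken on day 5. The same experiment held 4 sgRUVBL2, 4 sgKLF5, 2 sgCDK1 and 2 sgRpa3 libraries. CDK1 drives entry into mitosis, and RPA3 is a subunit of the single-stranded DNA binding protein of replication. The study used a pair of guides for RUVBL1, RUVBL2, KLF5 and ROSA26 with repeats of each, and left out a RUVBL1 library for low concentration. The labels do not say which guide a library carries, nor that replicates came from separate cultures, so p-values measure the spread between libraries, which may be partly technical. The cells are infected populations and not clones, so each value is a mean over cells.

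RUVBL1 and RUVBL2 are AAA+ ATPases that assemble into a shared ring complex. The ring works with HSP90 in the R2TP chaperone complex, which helps to build snoRNPs, RNA polymerase II and the PIKK kinases, and it is also a fixed part of the chromatin remodellers INO80 and SRCAP and of the TIP60 acetyltransferase complex. KLF5 is a zinc-finger transcription factor of epithelial cells that maintains basal-lineage genes in this kind of tumour, and SERPINB5, or maspin, served the study as a reporter of KLF5 activity.

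The values were TPM, in which each transcript's reads are divided by its length and by the library's total, so every library sums to the same amount, and the read depth behind them is unknown. In place of depth, between 13438 and 13552 genes reached 1 TPM in the sgRUVBL1 libraries and between 12782 and 13028 in sgRosa replicates 1 to 3. sgRosa replicate 4 stood apart, with 12411 such genes. Its 100 most abundant genes took 35.3% of all TPM, against 29.5 to 30.5% in the other sgRosa libraries and 24.8 to 26.0% in sgRUVBL1. Ribosomal protein genes took 23.3% of its TPM, against 18.1 to 18.4% in the other controls and 13.7 to 14.7% in the knockout. TPM values are shares of a library, and the median gene was 0.25 higher on the log2 scale in sgRUVBL1 than in sgRosa, and 0.19 higher without sgRosa replicate 4. When libraries were instead put on a common scale by their median ratio, the median difference was -0.01. Below, "rose" and "fell" are used only for genes that passed an adjusted p of 0.05 in limma in the same direction both on the TPM as deposited and after that scaling.

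The difference also went with transcript length, which 94.6% of the genes tested could be given, and was read in 5 classes of equal size. Relative to the mean of sgRosa replicates 1 to 3, the median gene in the shortest class (transcripts of 249 to 1755 bases) lay between 0.0014 and 0.027 in the sgRUVBL1 libraries, and the median gene in the longest class (5697 bases and more) between 0.26 and 0.35. In sgRosa replicate 4 the longest class lay at -0.33. The sgRUVBL2 libraries did not move together here, with values in the longest class from -0.12 in replicate 1 to 0.35 in replicate 2. Genes called higher made up 14.6% of the shortest class and 35.3% of the longest, and genes called lower 28.7% and 5.90%. Lists of short, abundant transcripts such as ribosomal proteins are thus read below beside this trend, and its part in their values was not tested.

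**Figure D1:**
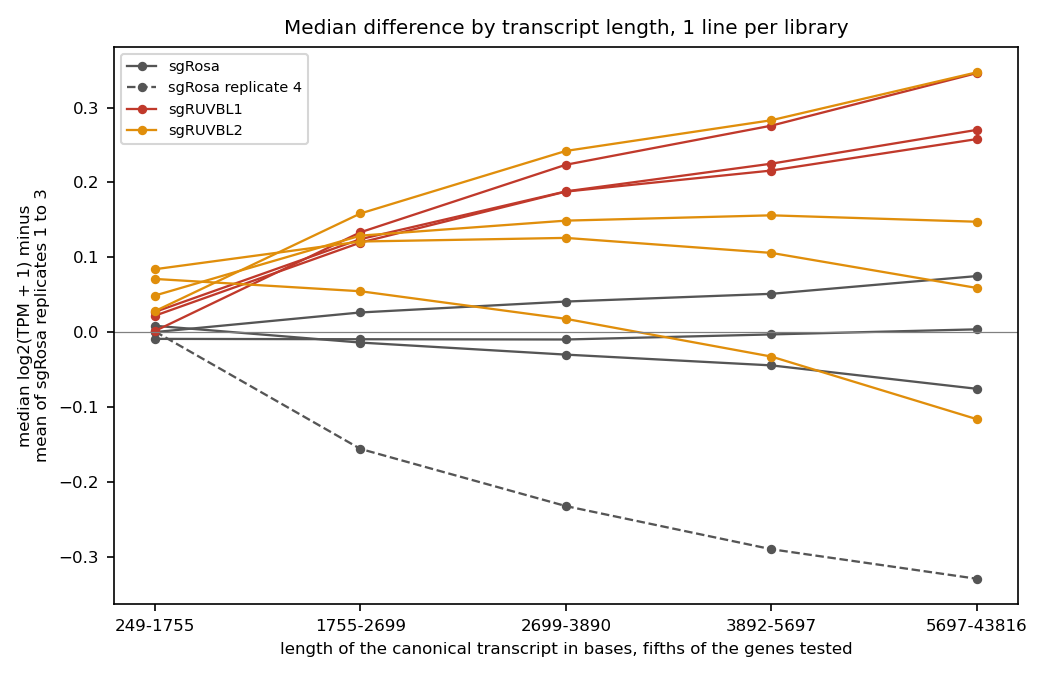
Median difference of log2(TPM + 1) from the mean of sgRosa replicates 1 to 3, over 5 equal classes of genes by the length of the canonical transcript in bases, 1 line for each sgRosa, sgRUVBL1 and sgRUVBL2 library. The 3 sgRUVBL1 lines climb to between 0.26 and 0.35 in the longest class, whereas sgRosa replicate 4, the dashed line, descends to -0.33.

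RUVBL1 itself, on chr3:128064785-128153914 (GRCh38), fell in all knockout libraries. Its TPM was 156, 161, 150 and 150 in sgRosa and 47.3, 44.2 and 41.6 in sgRUVBL1, which left 28.8% of the control mean. The log2 fold change was -1.78 ± 0.05 (SE, adjusted p = 6.0e-13), and the groups lay far apart. Of its neighbours, which overlap it in the annotation and are named here for their position, SEC61A1 (log2 fold change 0.29) was not called after scaling, and EEFSEC (0.10, adjusted p = 0.40) was not called at all. RUVBL2, the partner ATPase, was measured at 127, 119 and 137 TPM against 154 to 158 in the controls. Its fold change of -0.29 ± 0.10 passed the test (adjusted p = 0.021), but not without sgRUVBL1 replicate 1 (adjusted p = 0.053) or replicate 2 (0.095). In the reverse knockout RUVBL1 stood at 105 TPM, below every sgRosa library, and RUVBL2 at 45.5 TPM.

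KLF5 RNA was not lower in the knockout. It was measured at 433, 446 and 433 TPM in sgRUVBL1 and at 262 to 400 TPM in sgRosa, a log2 fold change of 0.41 ± 0.11 that was lost after scaling (0.12, adjusted p = 0.23). SERPINB5, the maspin gene, fell from 127 ± 15.1 TPM (SD, n = 4) to 89.7 ± 2.29 (n = 3), with no overlap between the groups. SERPINB5 thus differed by -0.49 ± 0.08 on the log2 scale (adjusted p = 9.4e-05), and sgKLF5 libraries averaged 60.8 TPM.

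**Figure D2:**
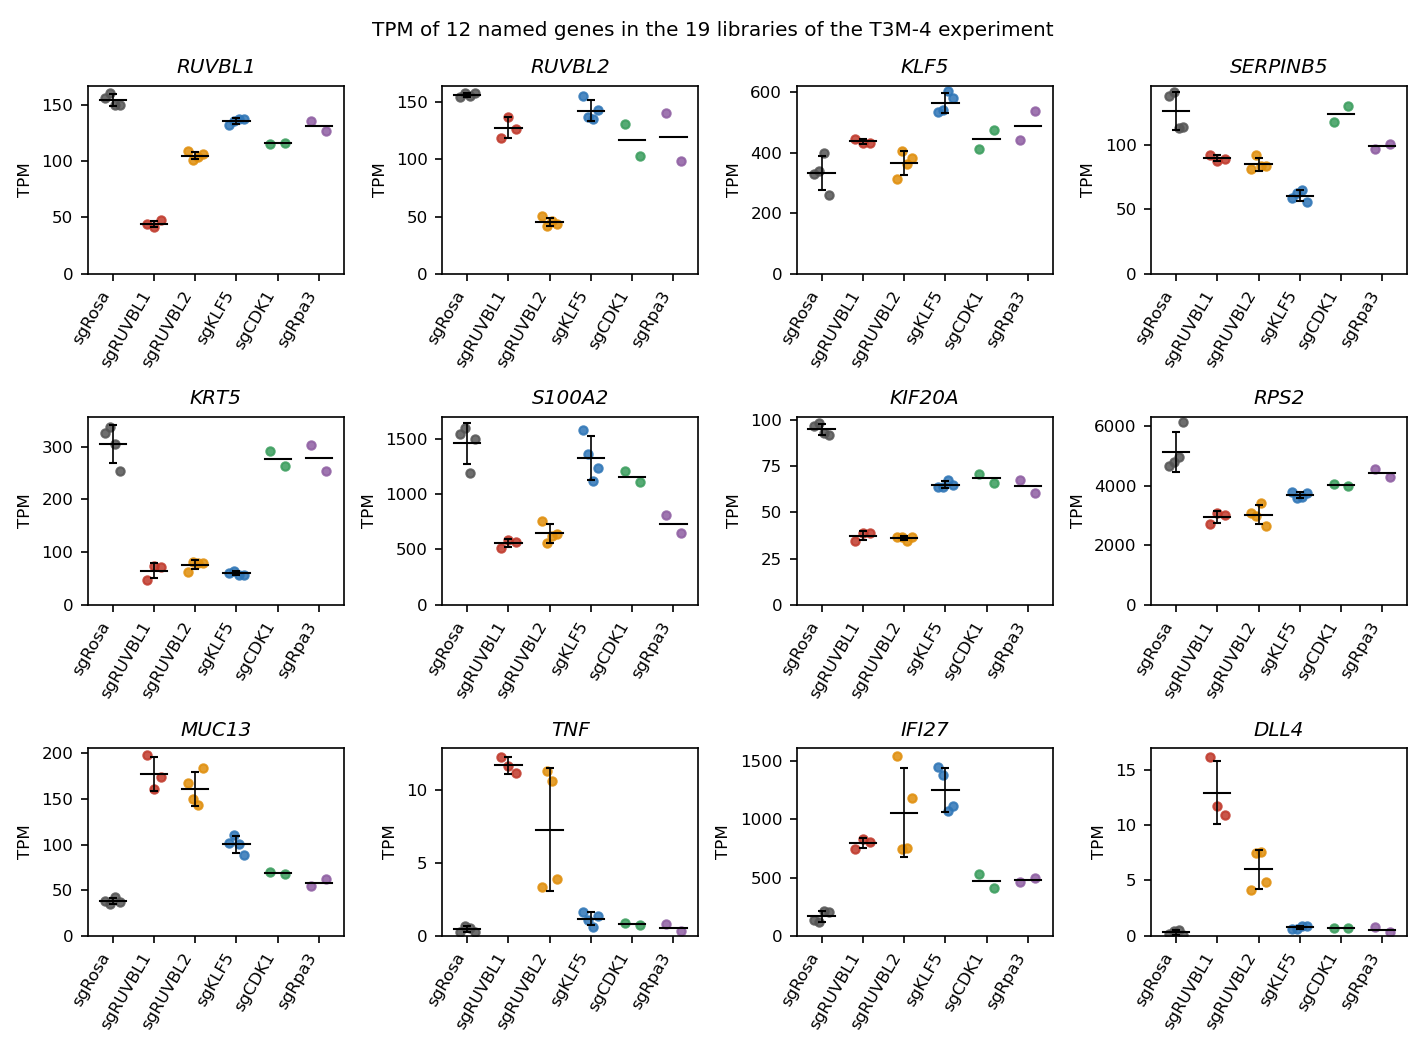
TPM of 12 named genes in the 19 libraries of the experiment, 1 point per library, with the group mean as a line and the SD as a bar where a group has more than 2 libraries. RUVBL1 sits at 41.6 to 47.3 TPM in sgRUVBL1 and at or above 101 TPM in every other group, and KRT5 is low after knockout of RUVBL1, RUVBL2 or KLF5 but not of CDK1 or RPA3.

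Of 13246 genes tested, those averaging 1 TPM or more over the 19 libraries, 6080 (45.9%) were higher and 1933 (14.6%) lower in sgRUVBL1 on the values as deposited, so that 75.9% of the calls were higher. After scaling the numbers were 3495 and 3946, and 47.0% of the calls were higher. In both settings together 3495 genes (26.4%) rose and 1933 (14.6%) fell, and these are the shares against which the lists below should be read. Lists of abundant genes should also be read against the shares in the most abundant class given above. Without sgRosa replicate 4 the same rule gave 3420 rises and 2183 falls.

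Most genes of cell division fell. Of 48 mitosis and G2/M genes, 44 fell and none rose (14.6% of all genes fell), and their median log2 fold change was -0.84, or -1.13 after scaling. KIF20A, a kinesin of cytokinesis, had 91.8 to 98.5 TPM in sgRosa and 38.8, 34.4 and 39.0 TPM in sgRUVBL1 (log2 fold change -1.32 ± 0.06, adjusted p = 9.9e-11). CENPA, the centromeric histone H3 variant, fell by 1.21 on the log2 scale. The kinetochore genes CENPE (-1.43 ± 0.49) and CENPF (-1.32 ± 0.40) fell with wide errors. CENPE ranged from 12.7 to 36.7 TPM among the controls, and its adjusted p was 0.059 without sgRosa replicate 2 and 0.054 without sgRUVBL1 replicate 1 or 3. Of 49 DNA replication genes, 36 fell and none rose, with a median of -0.43, and without sgRosa replicate 4 the number was 44. RRM2, a subunit of ribonucleotide reductase, went from 125 ± 17.5 to 56.6 ± 0.10 TPM, and GINS2, part of the replicative helicase, from 82.3 ± 8.93 to 43.1 ± 6.94. The primase subunit PRIM1 fell by 0.82 and thymidylate synthase TYMS by 0.80 on the log2 scale. Of 32 homologous recombination and Fanconi genes 14 fell and none rose, led by UBE2T, the E2 enzyme of the Fanconi pathway (-0.74 ± 0.08), and RAD51C (-0.68 ± 0.09).

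Partners and clients of the RUVBL1 ring showed smaller differences, several of which depended on scaling. The R2TP, snoRNP and RNA polymerase II lists lay below the all-gene median in every other knockout of this experiment too. Those values are given below. Of 14 R2TP and prefoldin-like genes, RUVBL1 among them, 7 fell and none rose, with PIH1D1, the R2TP adaptor, going from 88.1 ± 6.91 to 59.5 ± 2.96 TPM (-0.56 ± 0.08) and the chaperones HSP90AA1 and HSP90AB1 falling by 0.52 and 0.49 on the log2 scale. Of 9 PIKK kinase and TTT genes SMG1, the kinase of nonsense-mediated decay, alone rose (1.02 ± 0.22), and the list median of 0.16 turned to -0.13 after scaling. For 31 subunits of INO80, SRCAP and TIP60, 17 were called higher and 3 lower as deposited but 5 higher and 11 lower after scaling, and the median of 0.27 turned to -0.02. SRCAP (1.21 ± 0.47) and EP400 (0.98 ± 0.40), the large ATPases of that list, were not called after scaling, and without sgRosa replicate 4 their differences were 0.55 and 0.45 with no call. Without that library 6 members of the list rose and 5 fell, against 5 and 3 with it.

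RNA polymerase II subunits were mixed, with 3 rises and 2 falls among 17. POLR2A, the largest subunit, was 1.82 ± 0.59 higher, and this rested in large part on sgRosa replicate 4, without which the difference was 0.98 (adjusted p = 0.0065), and the call was lost when only sgRosa and sgRUVBL1 were fitted (adjusted p = 0.081). POLR2C (0.61 ± 0.08) and POLR2B (0.47 ± 0.07) also rose and POLR2H (-0.44 ± 0.06) fell. Of 77 snoRNP and ribosome biogenesis genes 27 fell and 2 rose, and without sgRosa replicate 4, when 76 could be tested, these were 29 and 4. FBL, the methyltransferase of box C/D snoRNPs, went from 309 ± 28.3 to 167 ± 8.53 TPM (-0.88 ± 0.08), and the nucleolar proteins NPM1 and NOP16 fell by 0.68 and 0.67. RRN3, which recruits RNA polymerase I, rose by 0.75 ± 0.10.

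Cytosolic ribosomal protein genes fell as a block, 74 of 79 with none rising, and their median log2 fold change was -0.40, or -0.69 after scaling. Their summed level ran from 138587 to 148959 TPM in sgRUVBL1 and from 183200 to 235171 TPM in sgRosa. RPS2 was measured at 4659, 4798, 4951 and 6133 TPM in the controls and at 3010, 2704 and 3093 TPM in the knockout, a log2 fold change of -0.80 ± 0.09. RPSA, RPLP0 and RPS3 fell by 0.79, 0.73 and 0.64. Nuclear-encoded respiratory chain genes followed the same course, with 49 falls and no rise among 73 and a median of -0.28. ATP5MC3 and ATP5MC1, which encode the membrane ring of ATP synthase, fell by 0.79 and 0.78, CYC1 of complex III by 0.69 and NDUFS7 of complex I by 0.64. Without sgRosa replicate 4, 68 ribosomal and 43 respiratory chain genes fell.

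Other housekeeping groups leaned the same way. Of 31 proteasome subunits 11 fell and none rose, by at most 0.36 (PSMC3). Among 15 heat shock and chaperonin genes with values, 11 fell and none rose, including CCT5 of the cytosolic chaperonin (-0.45 ± 0.06), whereas the co-chaperone BAG3, 0.47 higher as deposited, was not called after scaling. Cholesterol and fatty acid synthesis genes gave 12 falls and 1 rise among 30. FADS1 and SCD, fatty acid desaturases, fell by 0.67 and 0.56, and TM7SF2, a sterol reductase, rose by 0.54.

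KRT5 and KRT14, keratins of the basal layer, fell. KRT5 was measured at 325, 337, 305 and 255 TPM in sgRosa and at 71.6, 47.8 and 73.3 TPM in sgRUVBL1 (log2 fold change -2.25 ± 0.13, adjusted p = 1.3e-09). KRT14, its keratin partner, fell from 147 to 218 TPM in the controls to between 65.9 and 68.1 TPM (-1.40 ± 0.13). S100A2, a calcium-binding protein of basal cells, fell from 1456 ± 183 to 555 ± 38.3 TPM (-1.38 ± 0.13), and KRT6C, an inducible keratin at low level, from 3.62 ± 0.83 to 0.68 ± 0.30 TPM; KRT6C shares most of its sequence with other KRT6 genes, so its share of reads is uncertain. In each of these genes the groups did not overlap. KRT17, a far more abundant basal keratin, had group means of 2543 TPM in sgRosa and 2209 TPM in sgRUVBL1. For the basal transcription factor gene TP63 the means were 93.0 and 66.5 TPM. Of 42 basal keratinocyte-type genes tested 20 fell, 4 rose and 18 were not called in both settings, with a median of -0.22 (-0.51 after scaling). The basal programme as a published signature was split: of 148 Moffitt Basal-like genes tested 36 rose and 36 fell, and the median of 0.16 turned to -0.13 after scaling. Among its members KRT5 fell, whereas C15orf48, a mitochondrial protein induced in inflammation (2.05 ± 0.22), MUC16, the CA125 mucin (1.85 ± 0.43), and LEMD1 (1.64 ± 0.21) rose.

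Genes of glandular epithelium rose in part. Of 27 simple epithelial and endodermal genes 11 rose, 5 fell and 11 were not called in both settings, with a median of 0.40. MUC13, a membrane mucin, had 35.2 to 42.4 TPM in sgRosa and 174, 198 and 161 TPM in sgRUVBL1 (2.18 ± 0.10, adjusted p = 6.7e-11). MUC1 was measured at 34.0, 35.8, 58.2 and 7.74 TPM in the controls, the last being replicate 4, and at 124, 124 and 124 TPM in the knockout (2.13 ± 0.40). CEACAM5, the carcinoembryonic antigen, rose from 120 ± 23.9 to 412 ± 54.2 TPM and the epithelial ETS factor ELF3 from 157 ± 29.5 to 418 ± 31.3 TPM. Of 137 Moffitt Classical genes tested 62 rose and 12 fell, with a median of 0.47 (0.24 after scaling), and CEACAM7, DUOX2 and SLC26A9, a chloride transporter (2.25 ± 0.22), had the largest differences. The Moffitt Classical list also lay above the all-gene median after knockout of RUVBL2, CDK1 and RPA3, and those values are given below. Among 5 duct-type markers CDH1, or E-cadherin (1.00 ± 0.18), and MUC1 rose, KRT19 fell from 3336 ± 47.6 to 2333 ± 114 TPM, and KRT7 had group means of 1676 and 1879 TPM and EPCAM 121 and 118 TPM, so the epithelial label holds on these markers.

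**Figure D3:**
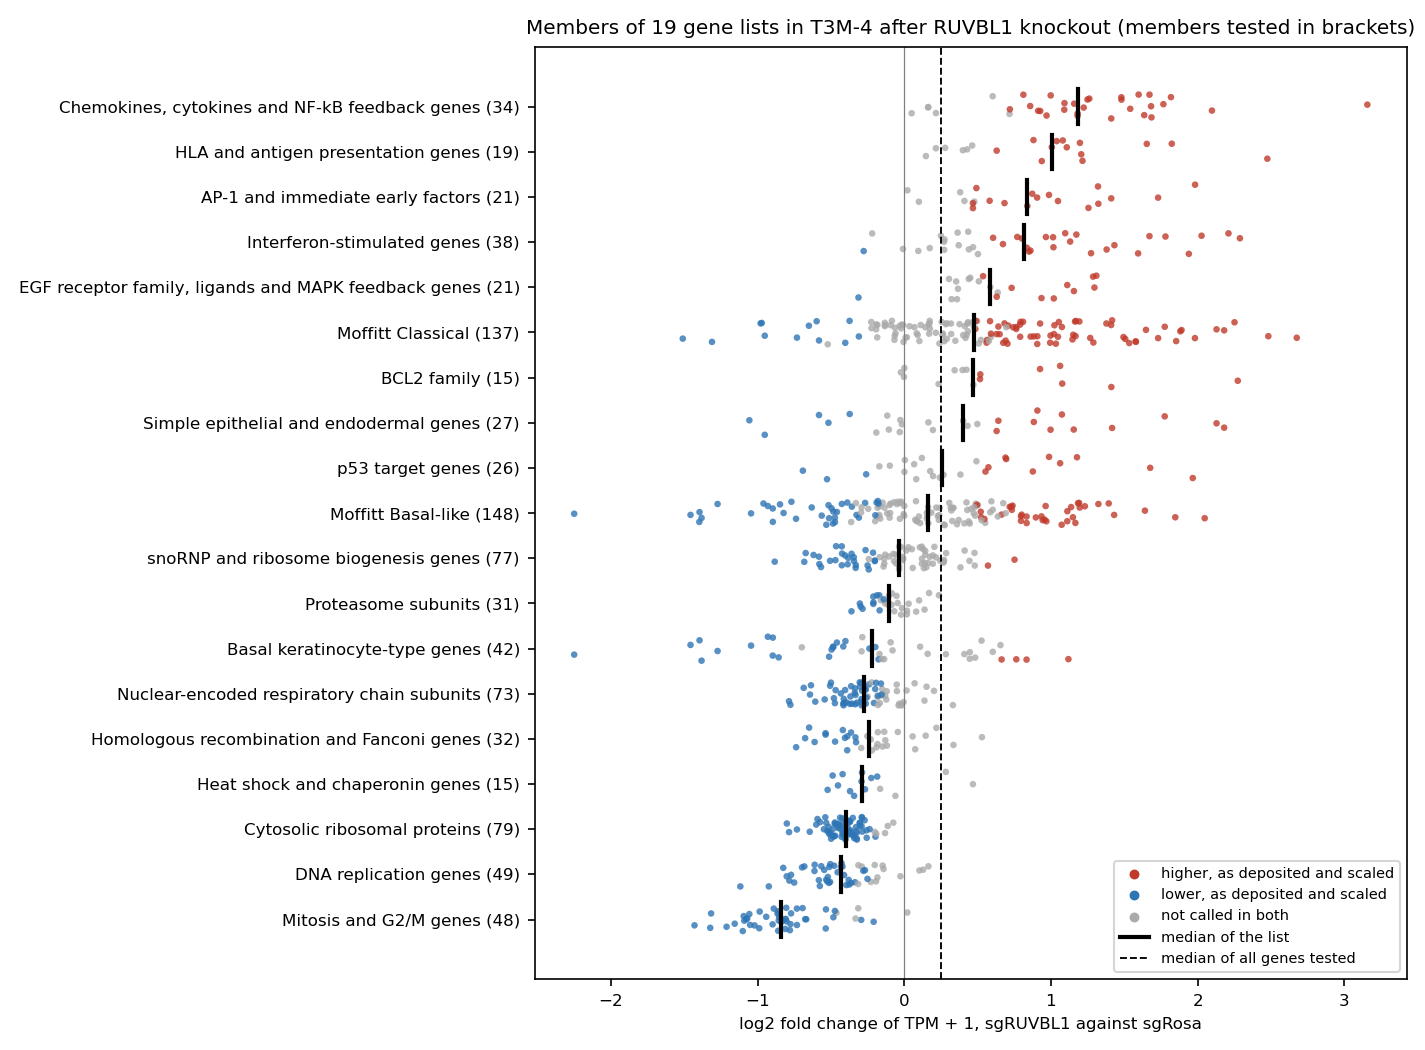
Log2 fold change of TPM + 1 in sgRUVBL1 against sgRosa for each tested member of 19 gene lists, with red points higher and blue points lower both as deposited and after scaling, grey points not called in both, black bars at list medians and a dashed line at the median of all genes tested, 0.25. List medians run from -0.84 for mitosis genes to 1.18 for chemokines, cytokines and NF-kB feedback genes.

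The lists of KLF5-dependent genes differed, and are read beside the 26.4% of all genes that rose and the 14.6% that fell. Among 85 direct KLF5 targets of T3M-4 with values, a list the study drew from labelled-RNA and chromatin data, 31 rose and 11 fell after RUVBL1 knockout, and 17 fell when sgRosa replicate 4 was left out. The median of 0.18 turned to -0.11 after scaling, and relative to the median of all genes it was -0.07, so these targets lay near all genes. IGFL1, an IGF-like ligand, rose from 155 ± 7.16 to 615 ± 47.1 TPM (1.98 ± 0.09), and the nuclear receptor NR4A1 from 9.54 ± 2.63 to 33.2 ± 2.66. The study also drew a list of genes lowered by sgKLF5 in the first T3M-4 experiment, whose libraries are not used here. Of its 244 genes 97 fell and 37 rose, with a median of -0.14 (-0.42 after scaling), and HSD11B1, which regenerates cortisol (1.73 ± 0.17), and SPNS2, a sphingosine phosphate transporter (1.65 ± 0.17), were among the rises. Members are named by size of difference, and those named here do not reflect the larger number of falls.

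Inflammatory genes had the highest median of the 35 lists with tested genes. Of 34 chemokines, cytokines and NF-kB feedback genes tested 28 rose and none fell (26.4% of all genes rose), with a median of 1.18, or 0.93 after scaling. TNF was nearly silent in sgRosa, at 0.255, 0.666, 0.558 and 0.257 TPM, and reached 11.2, 12.3 and 11.7 TPM in sgRUVBL1 (3.16 ± 0.30, adjusted p = 1.9e-07). ICAM1, the leukocyte adhesion molecule, had 26.1 to 36.8 TPM in the controls and 128, 147 and 121 TPM in the knockout (2.1 ± 0.11). TNFAIP3, or A20, a feedback inhibitor of NF-kB, rose from 18.4 ± 3.86 to 66.5 ± 7.32 TPM and the acute-phase gene SAA2 from 78.6 ± 17.1 to 266 ± 22.6 TPM; SAA2 is nearly identical to SAA1, so reads may be divided between them. Fold changes on the log2(TPM + 1) scale understate the change of genes as low as TNF.

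Interferon-stimulated and antigen presentation genes moved with them. Of 38 interferon-stimulated genes 23 rose and 1 fell, with a median of 0.82. Both lists also lay above the all-gene median in every other knockout of this experiment, and those values are given below. IFI27 was measured at 132, 121, 213 and 204 TPM in sgRosa and at 809, 750 and 834 TPM in sgRUVBL1 (2.29 ± 0.23, adjusted p = 4.1e-07). MX2, an antiviral GTPase, rose from 9.40 ± 1.83 to 46.6 ± 3.02 TPM, IFI6 from 103 ± 28.8 to 414 ± 37.6 TPM and XAF1 from 13.6 ± 3.63 to 53.8 ± 1.53 TPM. Of 19 HLA and antigen presentation genes 13 rose and none fell, with a median of 1.01. CD74, the invariant chain of class II, had 15.4 to 27.9 TPM in the controls and 115, 104 and 113 TPM in the knockout (2.48 ± 0.17), and HLA-DRB1 (1.82 ± 0.17), HLA-DRA (1.65 ± 0.17) and HLA-B (1.22 ± 0.11) rose too. HLA genes are polymorphic and alike, so the split of reads among them is uncertain.

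The starts of 5 of these genes are printed to show the letters through which NF-kB and interferon factors are known to bind. Promoters (250 bases before to 50 after the gene start, 300 bases, RefSeq, GRCh38.p14) were found for 10226 of the genes tested. A kappaB motif, spelled GGG, any 2 bases, then TTTCC, and searched on both strands, stood in 11 of 25 promoters of the chemokine, cytokine and NF-kB list (44%), in 2.22% of the promoters of all genes tested and in 1.92% of all 27305 promoters. An interferon-response motif, spelled TTTC, any 2 bases, then TTTC, and also searched on both strands, stood in 19 of 29 interferon-stimulated promoters (65.5%) and in 7 of 14 HLA and antigen presentation promoters (50.0%), against 2.85% of genes tested and 3.65% of all promoters. These lists hold genes known for the pathways, so the shares describe the lists and not the knockout, and a match is not a measured site. TNFAIP3 (chr6:137867009-137867308, plus strand) and CXCL1 (chr4:73869143-73869442, plus strand) are NF-kB list members and UBD (chr6:29559683-29559982, minus strand) is among the largest rises. IFI27 (chr14:94110486-94110785, plus strand) and IFI6 (chr1:27672143-27672442, minus strand) are interferon-stimulated. Each sequence runs 5′ to 3′ along its gene, capitals mark the matches to the letters named for that gene, and no capitals overlap.
TNFAIP3: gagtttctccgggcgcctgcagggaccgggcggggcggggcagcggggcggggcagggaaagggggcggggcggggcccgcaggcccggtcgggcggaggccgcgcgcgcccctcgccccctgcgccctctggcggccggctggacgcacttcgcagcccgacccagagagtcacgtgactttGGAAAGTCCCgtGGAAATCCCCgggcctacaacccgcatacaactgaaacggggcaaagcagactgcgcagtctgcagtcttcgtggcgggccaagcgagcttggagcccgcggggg
CXCL1: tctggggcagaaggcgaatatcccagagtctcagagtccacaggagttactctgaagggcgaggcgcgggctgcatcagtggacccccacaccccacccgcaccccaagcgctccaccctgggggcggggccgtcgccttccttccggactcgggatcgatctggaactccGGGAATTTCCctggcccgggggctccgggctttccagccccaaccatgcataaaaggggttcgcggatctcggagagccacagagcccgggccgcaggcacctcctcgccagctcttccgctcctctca
UBD: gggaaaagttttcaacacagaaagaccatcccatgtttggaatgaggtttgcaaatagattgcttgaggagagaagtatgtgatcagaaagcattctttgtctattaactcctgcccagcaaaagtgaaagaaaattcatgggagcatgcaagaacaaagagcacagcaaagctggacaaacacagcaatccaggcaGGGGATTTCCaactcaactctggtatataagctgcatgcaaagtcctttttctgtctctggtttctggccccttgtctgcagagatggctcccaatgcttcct
IFI27: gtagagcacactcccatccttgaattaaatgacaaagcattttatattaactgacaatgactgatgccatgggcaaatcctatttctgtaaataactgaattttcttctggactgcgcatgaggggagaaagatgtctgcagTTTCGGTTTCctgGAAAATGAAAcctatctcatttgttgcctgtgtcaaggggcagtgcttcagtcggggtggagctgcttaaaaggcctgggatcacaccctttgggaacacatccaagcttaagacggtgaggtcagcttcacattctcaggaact
IFI6: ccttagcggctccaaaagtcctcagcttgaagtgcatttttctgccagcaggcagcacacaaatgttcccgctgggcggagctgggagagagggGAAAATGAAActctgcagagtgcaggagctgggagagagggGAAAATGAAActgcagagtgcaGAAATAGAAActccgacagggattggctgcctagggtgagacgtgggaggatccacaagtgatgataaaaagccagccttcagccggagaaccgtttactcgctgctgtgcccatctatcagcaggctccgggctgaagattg
The kappaB matches begin 67 and 55 bases before the TNFAIP3 start, 79 before that of CXCL1 and 53 before that of UBD. Those for interferon factors begin 108 and 95 bases before the IFI27 start and 156, 115 and 93 before that of IFI6. CXCL1, a neutrophil chemokine, rose from 64.0 ± 10.8 to 112 ± 4.37 TPM (0.81 ± 0.11).

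Immediate early and growth factor genes were mostly higher. Of 21 AP-1 and immediate early factors 16 rose and none fell, with a median of 0.84. MAFF, a small MAF protein, rose from 46.7 ± 5.36 to 188 ± 24.1 TPM (1.98 ± 0.10), NR4A1 by 1.73, the stress factor ATF3 by 1.41 and FOSB by 1.32. For 21 genes of the EGF receptor family, its ligands and MAPK feedback, 18 were called higher and 1 lower as deposited, and 10 and 1 after scaling. HBEGF, an EGF receptor ligand, had 70.1 ± 5.17 TPM in sgRosa and 175 ± 15.1 in sgRUVBL1. The receptor ERBB3 (1.3 ± 0.12), the ephrin receptor EPHA2 (1.29 ± 0.17) and SPRY4, a feedback inhibitor of MAPK signalling (1.16 ± 0.21), also rose.

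Stress and survival genes were divided. Of 15 BCL2 family members 7 rose and none fell in both settings, although after scaling 2 were lower. The pro-survival genes BCL2A1 (2.27 ± 0.20) and BCL2L1 (1.08 ± 0.08) and the pro-death genes BCL2L11 (1.41 ± 0.23) and BBC3 (1.06 ± 0.13) were all among the rises. Of 26 p53 target genes 10 rose and 3 fell, and the median of 0.26 lay beside 0.25 for all genes and turned to -0.02 after scaling. PLK3 (1.97 ± 0.18) and TP53INP1 (1.68 ± 0.16) rose. Of 31 integrated stress and unfolded protein response genes 6 rose and 10 fell. CHAC1, a glutathione-degrading ATF4 target, rose from 25.6 ± 3.03 to 75.0 ± 4.81 TPM and PPP1R15A, the phosphatase subunit that restores translation, from 34.5 ± 4.07 to 95.7 ± 11.9, whereas DDIT4, an mTORC1 inhibitor, fell from 244 ± 17.8 to 125 ± 9.63 TPM.

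Metabolic and antioxidant genes gave 5 rises and 9 falls among 29 glycolysis and hypoxia genes, and 2 rises and 8 falls among 25 NRF2-type genes. The glycolysis and hypoxia list had a median of -0.07 (-0.35 after scaling, with 18 genes lower), and its summed level ran from 24316 to 26220 TPM in sgRosa and from 17024 to 18442 TPM in sgRUVBL1. Among its falls, named after their values were seen, were the glycolytic enzymes GAPDH (-0.68 ± 0.08) and ENO1 (-0.58 ± 0.09). Its 4 largest differences by size were nevertheless rises, in ADM, or adrenomedullin (1.19 ± 0.09), the glucose transporter SLC2A3 (0.97 ± 0.11), the histone demethylase KDM3A (0.77 ± 0.09) and HK2, a hexokinase (0.71 ± 0.12). In the second AKR1B10, an aldo-keto reductase, fell from 35.7 ± 3.05 to 12 ± 2.16 TPM and PIR by 0.76, while OSGIN1 (1.13 ± 0.12) and TXNRD1, thioredoxin reductase (0.71 ± 0.09), rose. Of 14 mesenchymal genes tested 5 rose and 2 fell, after scaling alone 5 were higher and 5 lower, and the median was -0.03 (-0.21 after scaling). SNAI1, a repressor of E-cadherin, rose from 3.43 ± 0.53 to 10.7 ± 1.31 TPM, and the matrix genes COL6A1 (1.25 ± 0.20), COL1A1 (1.08 ± 0.26) and FN1 (0.91 ± 0.21) rose. The falls, named after their values were seen, were SNAI2 (-0.47 ± 0.17), a repressor related to SNAI1, and TGFBI (-0.35 ± 0.07), a matrix protein. Of the 40 clustered histone genes listed 8 could be tested, of which HIST2H2BE (0.71 ± 0.10) and HIST1H2BD (0.63 ± 0.07) rose; most histone RNA lacks a poly(A) tail and is poorly covered by this assay.

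Markers of other cell types were mostly measured at low levels, and some rose. The 6 immune markers summed to between 65.0 and 73.4 TPM in sgRosa and between 92.3 and 103 TPM in sgRUVBL1, most of it CD68, and CD3E, LYZ and CD14, 3 of the 5 tested, rose. PTPRC, the pan-leukocyte marker CD45, had a mean of 7.59 TPM in sgRosa and 10.1 TPM in sgRUVBL1. CD3E, a T cell receptor subunit, had 0 to 0.147 TPM in the controls and 2.32 to 3.49 TPM in the knockout. The 4 endothelial markers summed to 3.25 to 5.96 and 9.28 to 10.2 TPM, with rises in CDH5 and VWF. The 5 fibroblast markers summed to 22.6 to 33.5 and 38.9 to 46.5 TPM, most of it COL1A1 and LUM. COL1A1 rose, from a mean of 10.19 TPM in sgRosa to 20.95 TPM in sgRUVBL1. LUM, with means of 17.26 and 21.48 TPM, was not called. COL3A1 had at most 0.191 TPM and PDGFRB at most 0.0959 TPM. The 6 acinar and islet markers summed to at most 0.680 TPM. The part of these markers in the inflammatory and antigen presentation values was not tested.

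The 12 largest falls and 12 largest rises under the naming rule (a mean of at least 5 TPM and no overlap between the groups) included RUVBL1 and the keratin, mitosis and inflammatory genes above. The remaining falls were those of CDKN3, a phosphatase acting on cyclin-dependent kinases, from 90.4 ± 6.39 to 32.5 ± 0.89 TPM, the connexin GJB6 (-1.40 ± 0.12), the proton channel OTOP3 (-1.38 ± 0.18), the LIM protein CSRP2 (-1.33 ± 0.11) and the adhesion molecule CNTN1 (-1.33 ± 0.12). SERF1B (-1.80 ± 0.51) has an almost identical copy, spread from 4.85 to 28.9 TPM among the knockout libraries, and lost its call without sgRUVBL1 replicate 2 (adjusted p = 0.056). DLL4, a Notch ligand, gave the largest rise, from 0.172, 0.455, 0.496 and 0.0543 TPM to 10.9, 16.2 and 11.7 TPM (3.42 ± 0.19, adjusted p = 5.5e-10). RFPL4A (3.04 ± 0.30) also rose, from at most 1.09 TPM, and it too has a close copy. UBD, a ubiquitin-like modifier induced by cytokines, rose from 14.7 ± 3.36 to 108 ± 8.69 TPM, the cytidine deaminase APOBEC3A from 6.85 ± 2.28 to 48.0 ± 2.69 TPM and the GTPase RND1 from 3.32 ± 0.52 to 24.6 ± 2.43 TPM. The others were CEACAM7 (2.68 ± 0.24), CLIC5 (2.61 ± 0.14), the NADPH oxidase DUOX2 with its maturation factor DUOXA2 (2.48 ± 0.26 and 2.51 ± 0.27), and the mucin MUC4. MUC4 was 2.50 ± 0.46 higher, and 1.83 without sgRosa replicate 4.

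Knockout of RUVBL2 was the nearest comparison, since both proteins sit in the same ring. Between sgRUVBL1 and sgRUVBL2, 1 gene was called lower (0.00755%) and 2 higher (0.0151%) at an adjusted p of 0.05 in limma, while 1491 had an unadjusted p under 0.05. The calls were RUVBL1 (-1.23 ± 0.05), RUVBL2 (1.47 ± 0.10) and RELN, or reelin, a low gene outside the naming rule (0.73 ± 0.11, adjusted p = 0.011). One library decided this count: without sgRUVBL2 replicate 2, 268 genes were higher and 46 lower. The median size of the difference over all genes was 0.11 on the log2 scale against a median SE of 0.12, and 12 genes differed by more than 1, whereas 989 did so between sgRUVBL1 and sgRosa. DLL4 was 1.01 ± 0.19 higher in sgRUVBL1 than in sgRUVBL2 (adjusted p = 0.13) and TNF 0.77 ± 0.30 (adjusted p = 0.43), TNF having 3.37 and 3.88 TPM in sgRUVBL2 replicates 1 and 4 and 11.3 and 10.6 TPM in replicates 2 and 3. KRT5 differed by -0.25 ± 0.13 and KIF20A by 0.04 ± 0.06. A p that misses the threshold does not show that the knockouts act alike.

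Set side by side against the same sgRosa libraries, and after subtraction of each knockout's all-gene median, the median over mitosis genes was -1.09 for sgRUVBL1, -1.07 for sgRUVBL2, -0.52 for sgKLF5, -0.34 for sgCDK1 and -0.64 for sgRpa3. For chemokines, cytokines and NF-kB feedback genes it was 0.93, 0.90, 1.29, 0.38 and 0.24 in the same order, and for basal keratinocyte-type genes -0.47, -0.49, -1.0, 0.20 and -0.37. Ribosomal protein genes lay at -0.65, -0.51, -0.34, -0.35 and -0.19. R2TP and prefoldin-like genes lay at -0.43, -0.37, -0.14, -0.37 and -0.38. For snoRNP and ribosome biogenesis genes the values were -0.29, -0.35, -0.19, -0.34 and -0.29. RNA polymerase II subunits lay at -0.25, -0.12, -0.12, -0.25 and -0.33. Interferon-stimulated genes lay at 0.57, 0.55, 0.68, 0.43 and 0.45, and HLA and antigen presentation genes at 0.75, 0.99, 0.61, 0.38 and 0.49. Moffitt Classical genes lay at 0.22, 0.27, -0.03, 0.27 and 0.16, and simple epithelial and endodermal genes at 0.15, 0.10, -0.07, 0.12 and 0.004.

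**Figure D4:**
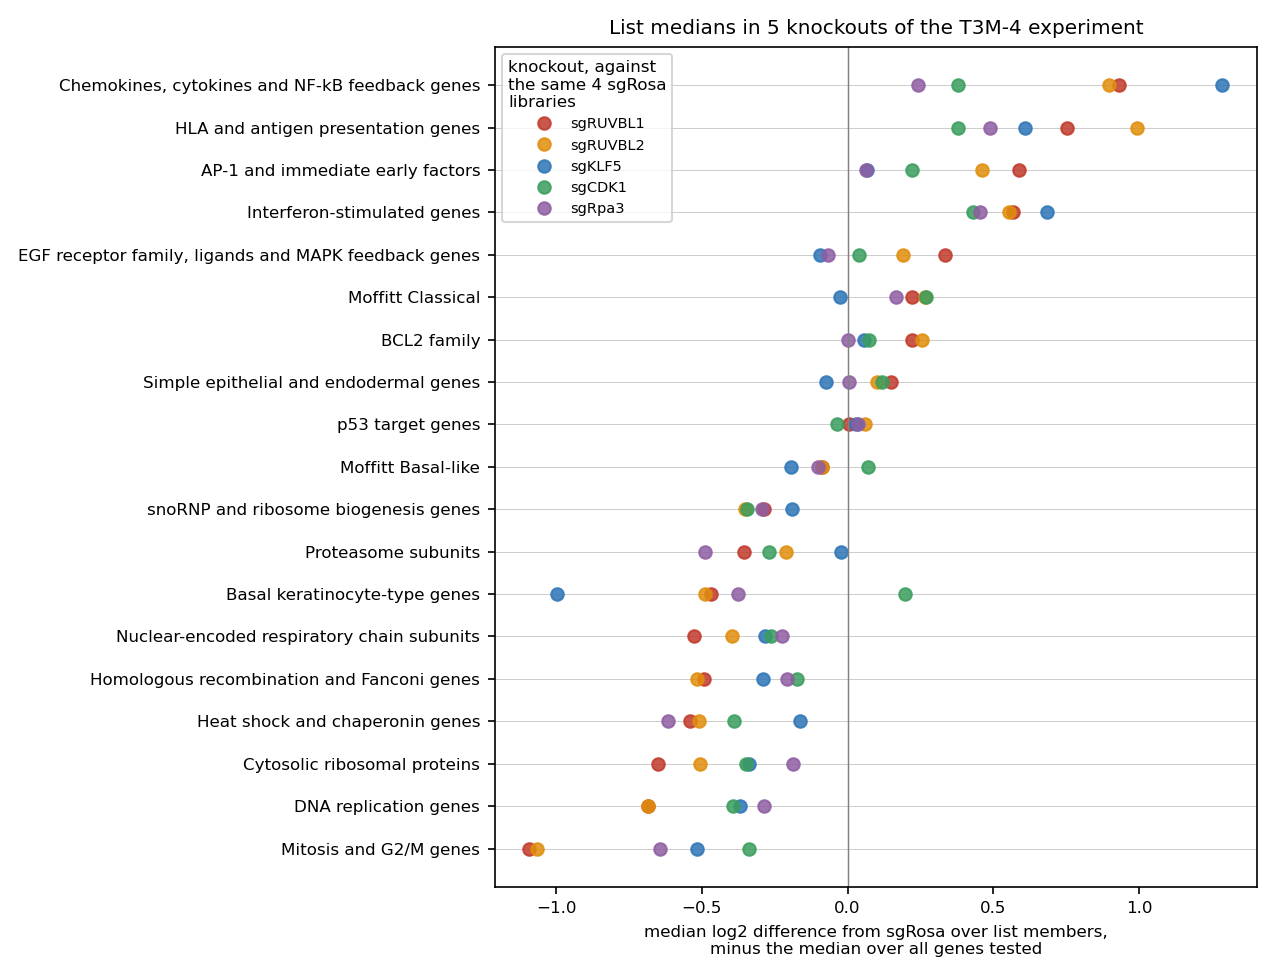
Median log2 difference from the 4 sgRosa libraries over the members of 19 gene lists, minus the median over all genes, for 5 knockouts of the T3M-4 experiment, 1 point per knockout. All 5 share their controls. The sgRUVBL1 and sgRUVBL2 points lie close on most lines, -1.09 and -1.07 for mitosis genes, while sgKLF5 lies farther left for basal keratinocyte-type genes at -1.0.

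Against sgKLF5, 2897 genes (21.9%) were higher and 2024 (15.3%) lower in sgRUVBL1 both as deposited and after scaling. KLF5 RNA was not lowered by its own knockout, with 533 to 604 TPM in sgKLF5, so the RNA level does not mark that knockout here. Direct KLF5 targets differed in one direction, with 70 of 85 higher in sgRUVBL1 than in sgKLF5 and none lower. Of the 244 genes on the list from the first sgKLF5 experiment 183 were higher and 17 lower. The study chose both lists for a fall on loss of KLF5 in T3M-4. Their direction in this contrast was thus largely set by how they were chosen. IGFL1 stood at 615 TPM in sgRUVBL1 and 28.4 TPM in sgKLF5 (4.40 ± 0.09, adjusted p = 1.1e-15), and KISS1, or kisspeptin (3.52 ± 0.21), HSD11B1 (3.2 ± 0.17), RFPL4A (3.19 ± 0.30) and the gel-forming mucin MUC2 (3.15 ± 0.51) followed. Lower in sgRUVBL1 were the collagenase MMP13, with 10.4 against 260 TPM (-4.53 ± 0.21), the antimicrobial peptide DEFB4A (-3.96 ± 0.26), the growth factor CSF3 (-3.44 ± 0.15), CXCL1 (-3.02 ± 0.11) and PRR16 (-3.02 ± 0.18). Among basal keratinocyte-type genes 25 of 42 were higher and 7 lower in sgRUVBL1, among mitosis genes 36 of 48 were lower, and among chemokines, cytokines and NF-kB feedback genes 10 of 34 were higher and 16 lower.

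The sgCDK1 and sgRpa3 libraries carry guides against other genes that dividing cells need, and the comparison with them does not separate causes. CDK1 was down to 35.8% of its control level in its own knockout, and RPA3 stood at 67.5 and 77.3 TPM in sgRpa3 against 80.6 to 105 TPM in sgRosa, while its mean in sgRUVBL1 was 72.7 TPM, beside 72.4 TPM in sgRpa3. Compared with both groups together, 2702 genes (20.4%) were higher and 1954 (14.8%) lower in sgRUVBL1 in both settings. Mitosis genes were lower for 35 of 48 and DNA replication genes for 28 of 49, with none higher, and 50 of 79 ribosomal protein genes were lower. Chemokines, cytokines and NF-kB feedback genes were higher for 24 of 34 and lower for 2, and basal keratinocyte-type genes lower for 19 of 42 and higher for 4. Interferon-stimulated genes gave 4 higher and 4 lower of 38. R2TP and prefoldin-like genes gave 2 higher and 3 lower of 14, with RUVBL1 among the lower. KRT5 was lower in sgRUVBL1 by 2.12 ± 0.13 on the log2 scale (64.2 against 278 TPM in sgCDK1 and 279 in sgRpa3), and TNNT3 (-2.18 ± 0.16), BMP7 (-2.13 ± 0.13), DAPL1 (-1.99 ± 0.17) and LSP1 (-1.97 ± 0.30) were the other lower genes named by the rule. DLL4 (3.08 ± 0.19), TNF (2.93 ± 0.30), RFPL4A (2.87 ± 0.30), the cytokine IL24 (2.71 ± 0.15) and RND1 (2.3 ± 0.10) were higher.

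RUVBL1 was also knocked out in other pancreatic cancer lines, and their values are given beside those of T3M-4 with no test. Mean RUVBL1 differences of log2(TPM + 1) were -1.14 in BxPC-3, -1.58 and -1.40 in AsPC-1 experiments 2 and 3 and -1.87 in CFPAC-1, with 4 libraries a group. Of the 12 falls of T3M-4, 7 lay below all controls in BxPC-3, 3 and 2 in AsPC-1 and 3 in CFPAC-1, RUVBL1 being among them each time. Of the 12 rises, 7, 5, 4 and 3 lay above all controls in the same order. Each AsPC-1 experiment had 2 of the falls above all controls, and no rise lay below all controls in these lines. The share of all genes lying wholly on a side of the controls was not counted here, so no excess can be read from these numbers. RND1 was above all controls in each of these experiments, by 1.38, 1.93, 0.98 and 1.15. The median over interferon-stimulated genes was -0.07, -0.34, -0.24 and -0.04 in the same order, the all-gene median being -0.20 in CFPAC-1. Over HLA and antigen presentation genes it was -0.01, 0.32, -0.07 and 0.04. KRT5, at 3258 ± 122 TPM in BxPC-3 controls, was 0.66 lower there, but the controls of AsPC-1 (0.136 and 0.165 TPM) and CFPAC-1 (0.324 TPM) hardly expressed it, so no fall could be seen in them. In the same controls GJB6 and OTOP3 averaged 0 TPM, KRT14 at most 0.311 TPM and CNTN1 at most 0.867 TPM. The counts of falls in AsPC-1 and CFPAC-1 thus include genes that could hardly fall.

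**Figure D5:**
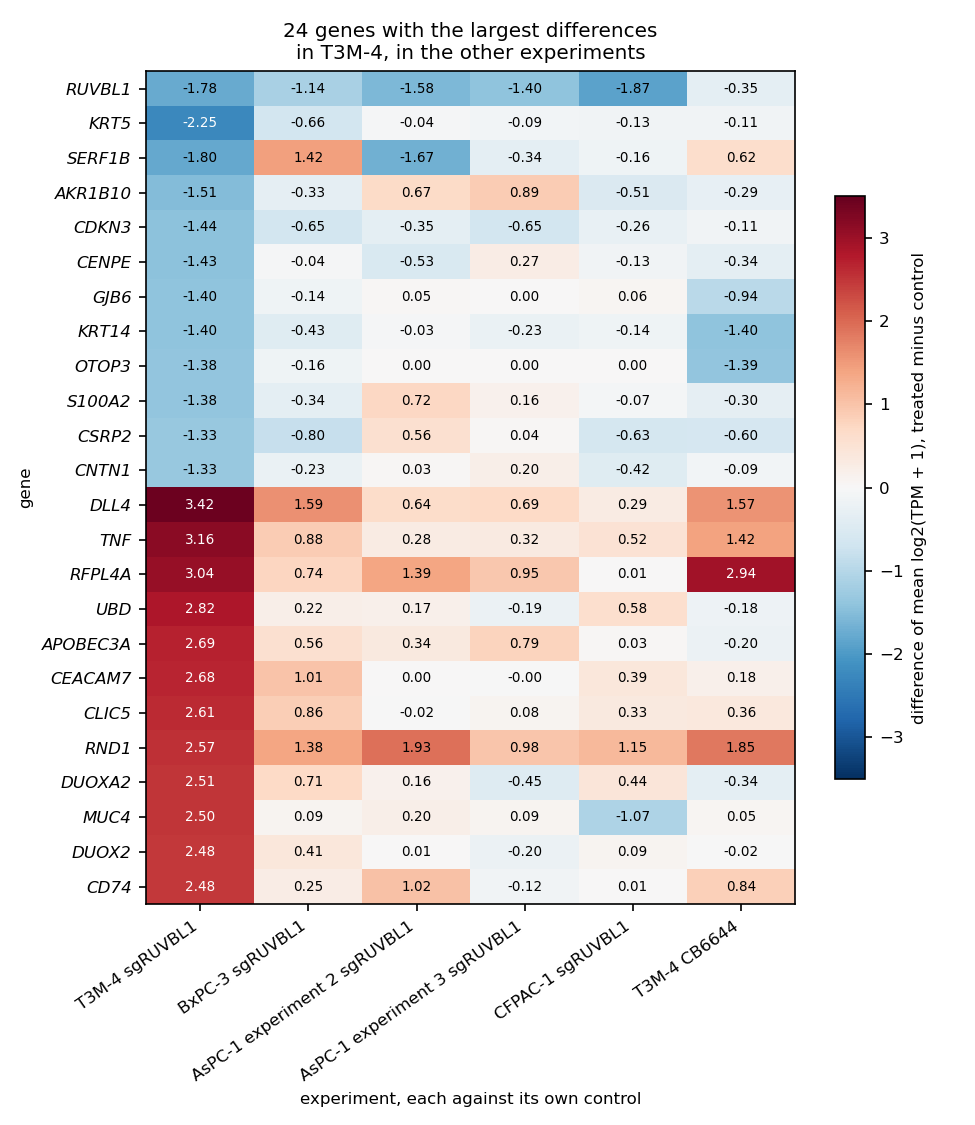
Difference of mean log2(TPM + 1), treated minus control, for the 12 largest falls and 12 largest rises of T3M-4 after RUVBL1 knockout, in that experiment, in 4 knockout experiments in other lines and in T3M-4 treated with CB6644. RND1 is positive in every column, from 0.98 to 2.57, while KRT5 falls by 2.25 in T3M-4 and by 0.66 in BxPC-3.

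CB6644, an inhibitor of the RUVBL1 and RUVBL2 ATPase, was given for 24 h to T3M-4 cells with an empty vector (Lv-Empty), with 3 treated libraries and 1 DMSO library. RUVBL1 RNA was 111 ± 2.15 TPM in the treated libraries and 142 TPM in the DMSO library. Of the 12 falls 9 lay below the DMSO library, including KRT14 (-1.40) and GJB6 (-0.94), while KRT5 differed by -0.11 (1706 against 1846 TPM), and of the 12 rises 7 lay above it, including RFPL4A (2.94), RND1 (1.85), DLL4 (1.57) and TNF (1.42). Of the rises UBD (-0.18) and DUOXA2 (-0.34) lay below it, and of the falls SERF1B (0.62) lay above it. The share of all genes lying wholly on a side of the DMSO library was not counted. Over whole lists the median difference was -0.15 for chemokines, cytokines and NF-kB feedback genes, -0.03 for mitosis genes and 0.24 for DNA replication genes. The median over all genes was 0.17. With a lone control library these differences have no replicate check, and time and agent differ from the knockout.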

How the data were processed

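The authors deposited RNA-seq tables of TPM per gene, which per the study's methods came from poly(A) single-end reads quantified with kallisto (version not given in the sources used here) on hg38, with low-abundance transcripts removed. The 19 libraries of the second T3M-4 experiment entered a single model of log2(TPM + 1), made with limma 3.58.1 under R 4.3.3 and a trended empirical Bayes step, for genes averaging 1 TPM or more. Benjamini-Hochberg adjustment ran over all 13246 genes, and adjusted p-values come from this two-sided fit unless another setting is named. Those given after scaling, without a library or with only the groups compared come from refits, each adjusted over the genes it tested. The script was tested on simulated data. Of 19875 gene names 534 matched no symbol, so some list members have no value. The naming rule took RUVBL1, RUVBL2, KLF5 and SERPINB5, the 12 largest non-overlapping falls and rises averaging 5 TPM or more, up to 4 members per list, and the 5 largest differences each way in the other contrasts. Members and lists were chosen with earlier results of these data known, and requiring a call both as deposited and scaled was chosen after seeing the data. Replicates were compared before averaging. Some list members are not reported here.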

Additional observations from a re-analysis of the deposited data

Results flagged for a closer look

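In 17 of 174 groups of 4 libraries (9.77%) 1 library lay far from the other 3, by a gap that, divided by the group's range, passed Dixon's critical value, where chance flags about 1 in 20 groups. Every named gene was examined in sgRosa, but sgRUVBL2 and sgKLF5 were examined only for measures of the whole library and for genes named in their own contrasts, so that all 17 were sgRosa groups follows largely from what was examined. Replicate 4 was the library concerned in 10. Its share of TPM in the 100 most abundant genes (35.3%, gap 0.838) and in ribosomal protein genes (23.3%, gap 0.942) stood apart, as did its levels of CNTN1 (27.9 TPM, 0.892), PLK3 (6.79 TPM, 0.860), BAG3 (48.4 TPM, 0.873), RPLP0 (6634 TPM, 0.928), RPS3 (2470 TPM, 0.967), ATP5MC3 (176 TPM, 0.879), OSGIN1 (21.8 TPM, 0.926) and CDH1 (51.8 TPM, 0.857). Replicate 3 stood apart for DUOX2 (3.73 TPM, 0.840), CEACAM5 (156 TPM, 0.848), DDIT4 (270.3 TPM, 0.963), CCT5 (532 TPM, 0.838), PSMC5 (417 TPM, 0.871) and FADS1 (65.1 TPM, 0.895), and replicate 2 for KRT19 (3406 TPM, 0.868).

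For 5 genes every sgRUVBL1 library lay on one side of its controls in T3M-4 and on the opposite side in another line, 9 cases in all, and the difference between lines was not tested. In AsPC-1 experiment 2 the differences of mean log2(TPM + 1) were 0.27 for RUVBL2, -0.69 for KLF5, 0.67 for AKR1B10 and 0.72 for S100A2. In AsPC-1 experiment 3 they were 0.38 for RUVBL2, -0.53 for KLF5, 0.89 for AKR1B10 and 0.20 for CNTN1. CNTN1 was near the floor there, with means of 0.169 TPM in the controls and 0.343 TPM in the knockout. In CFPAC-1 KLF5 differed by -0.56. Named genes outside this search also lay on opposite sides and were not counted. Among them were MUC1 in AsPC-1 experiments 2 and 3 (-1.11 and -1.49) and IFI6 in BxPC-3 (-0.61).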

How the results depend on the processing

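Scaling by the median of ratios changed the split against sgRosa to 3495 higher and 3946 lower, or 3420 and 3984 when sgRosa replicate 4 was also left out, and 3495 higher genes were called in both settings. Against sgKLF5 scaling gave 3336 lower genes. Scaling turned TTI2 to -0.0506, KRT7 to -0.129 and LSP1 to -0.0412, and without sgRosa replicate 4 as well the values were -0.0837 for MTOR, -0.0149 for TTI2, -0.0667 for KRT7 and -0.104 for LSP1. Against sgRUVBL2 the higher calls were 1 with a pseudocount of 0.1, 1 for genes averaging 5 TPM or more and 1 with only the groups compared, and without a filter 8 genes were called, 6 higher and 2 lower. The cause was not tested. Leaving out 1 library gave 6641 to 8214 calls against sgRosa, 2 to 314 against sgRUVBL2 (1 to 268 higher, 1 to 46 lower), 4694 to 5574 against sgKLF5 and 4006 to 5118 against sgCDK1 and sgRpa3; of 490 list counts 461 stayed within 1.5 times.

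Replicate numbers were not taken to pair the libraries, since not every same-numbered correlation of deviations passed 0.1. For sgRUVBL1 with sgRosa these were -0.045, 0.097 and 0.041. With sgRUVBL2 they were 0.089, 0.229 and 0.114, where each sgRUVBL1 library correlated best with its own number, a hint from the data and not from the design. With a replicate block 7630 genes were called against sgRosa (5704 higher, 1926 lower), 3 against sgRUVBL2, 5762 against sgKLF5 and 5400 against sgCDK1 and sgRpa3, and 170 of 175 named values kept their call. Read depth is unknown, so no counting error can be given.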
